A study of Homo sapiens with 6 samples.

Results

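Chromatin accessibility was described around 10 genes for developmental transcription factors that are textbook targets of Polycomb repression: PAX6, PAX3, GATA4, LHX2, TBX5, NKX2-5, NKX2-1, OLIG2, FOXA2 and SOX17. Every ATAC-seq peak within 20 kb of the hg19 interval of 1 of these genes was taken, whatever its height. The peaks of the 6 libraries merged into 91 regions, of 248031 regions in all, and 37 of the 91 had a peak in every library. The cells were U2OS, an established human osteosarcoma line, either wild type (WT, 3 libraries) or carrying a knockout of CRAMP1, a regulator of linker histone H1 genes (CRAMP1-KO, 3 libraries). The comparison asks whether sites near these genes are more or less open without CRAMP1. The labels give no further allele, agent or time, and do not say whether the knockout is 1 clone or whether replicates were separate cultures, so a p-value here covers the spread among the libraries, technical or not. Peaks do not show whether CRAMP1 is disrupted, so the genotype labels were not checked by these data. In such bulk libraries, fewer cells with a site open and less opening of the site per cell cannot be told apart.

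Polycomb complexes keep developmental regulators silent in cell types that do not need them: one complex methylates lysine 27 of histone H3, and another places ubiquitin on histone H2A and compacts nucleosomes. Their targets are typically CpG islands, stretches rich in the dinucleotide CG, and such islands can be accessible to enzymes at the gene start while the gene is silent. Linker histone H1 binds nucleosomes where DNA enters and exits and is itself linked to chromatin compaction and to methylation of H3 lysine 27. The peak lists measure neither Polycomb marks nor transcription, so the Polycomb class of the genes is background here and was not measured.

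ATAC-seq marks DNA that a transposase can cut, and a peak is a stretch where such cuts pile up above the local background. The strength of a region is given as its normalised pileup, the height of the pile at the summit, which was solved from the deposited fold enrichment and −log10 p and then multiplied by 1 factor per library, from 0.761 to 1.39, so that the median over shared regions is equal. Values are listed in the order of replicates 1, 2 and 3. The lists held 132686 to 198875 peaks, and their read totals are unknown. WT replicate 1 stood apart, with the longest list and a median fold enrichment of 4.25, against 5.96 to 6.26 in the other libraries. Of the bone lineage genes RUNX2, COL1A1, COL1A2 and SPARC, 3 of 4 had a peak within 1 kb of the start in all 6 libraries and RUNX2, the defining bone regulator, had none there. Only 1 start per gene was checked, and RUNX2 with 20 kb on each side held 26 regions, 10 of them in all 6 libraries. Neither the blood gene PTPRC nor the liver gene ALB had one in any library.

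The number of peaks in the 10 gene windows did not separate the genotypes. The WT libraries had 75, 53 and 49 peaks there, the CRAMP1-KO libraries had 45, 48 and 57, and the ranges overlap. No region near these genes had a peak in all 3 WT libraries while absent from every CRAMP1-KO list, or the reverse. In the genome, 0.767% of regions had that pattern for CRAMP1-KO and 1.14% for WT. With 1 library left out, the pattern was met by 3 regions when this was WT replicate 3 (3.37%, against 4.48% of the genome's regions), by 2 when it was CRAMP1-KO replicate 2 (2.27% against 3.18%), by 1 when it was WT replicate 2 (1.15% against 3.61%) or CRAMP1-KO replicate 3 (1.16% against 3.57%), and by 0 without replicate 1 of WT (against 3.91%) or of CRAMP1-KO (against 3.10%). In each of these the share near the 10 genes lay below that of the genome, a difference that was not tested. The share of regions with a peak in all 6 libraries was 40.7% near the 10 genes and 37.3% in the genome. Of the 32 regions seen in 1 library alone, 18 were those of WT replicate 1, as were 36646 of 76095 such regions in the genome. The rule's limit of 20 kb fell between a PAX3 region 19.1 kb from the gene, in 6 libraries with a median normalised pileup of 82.3, and an OLIG2 region 20.8 kb away, in 1 library at 9.90. The next regions outside were an NKX2-5 region, also 20.8 kb away and in 1 library at 12.2, and an LHX2 region 21.1 kb away that was in 6 libraries at 121, higher than the PAX3 region inside.

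**Figure D1:**
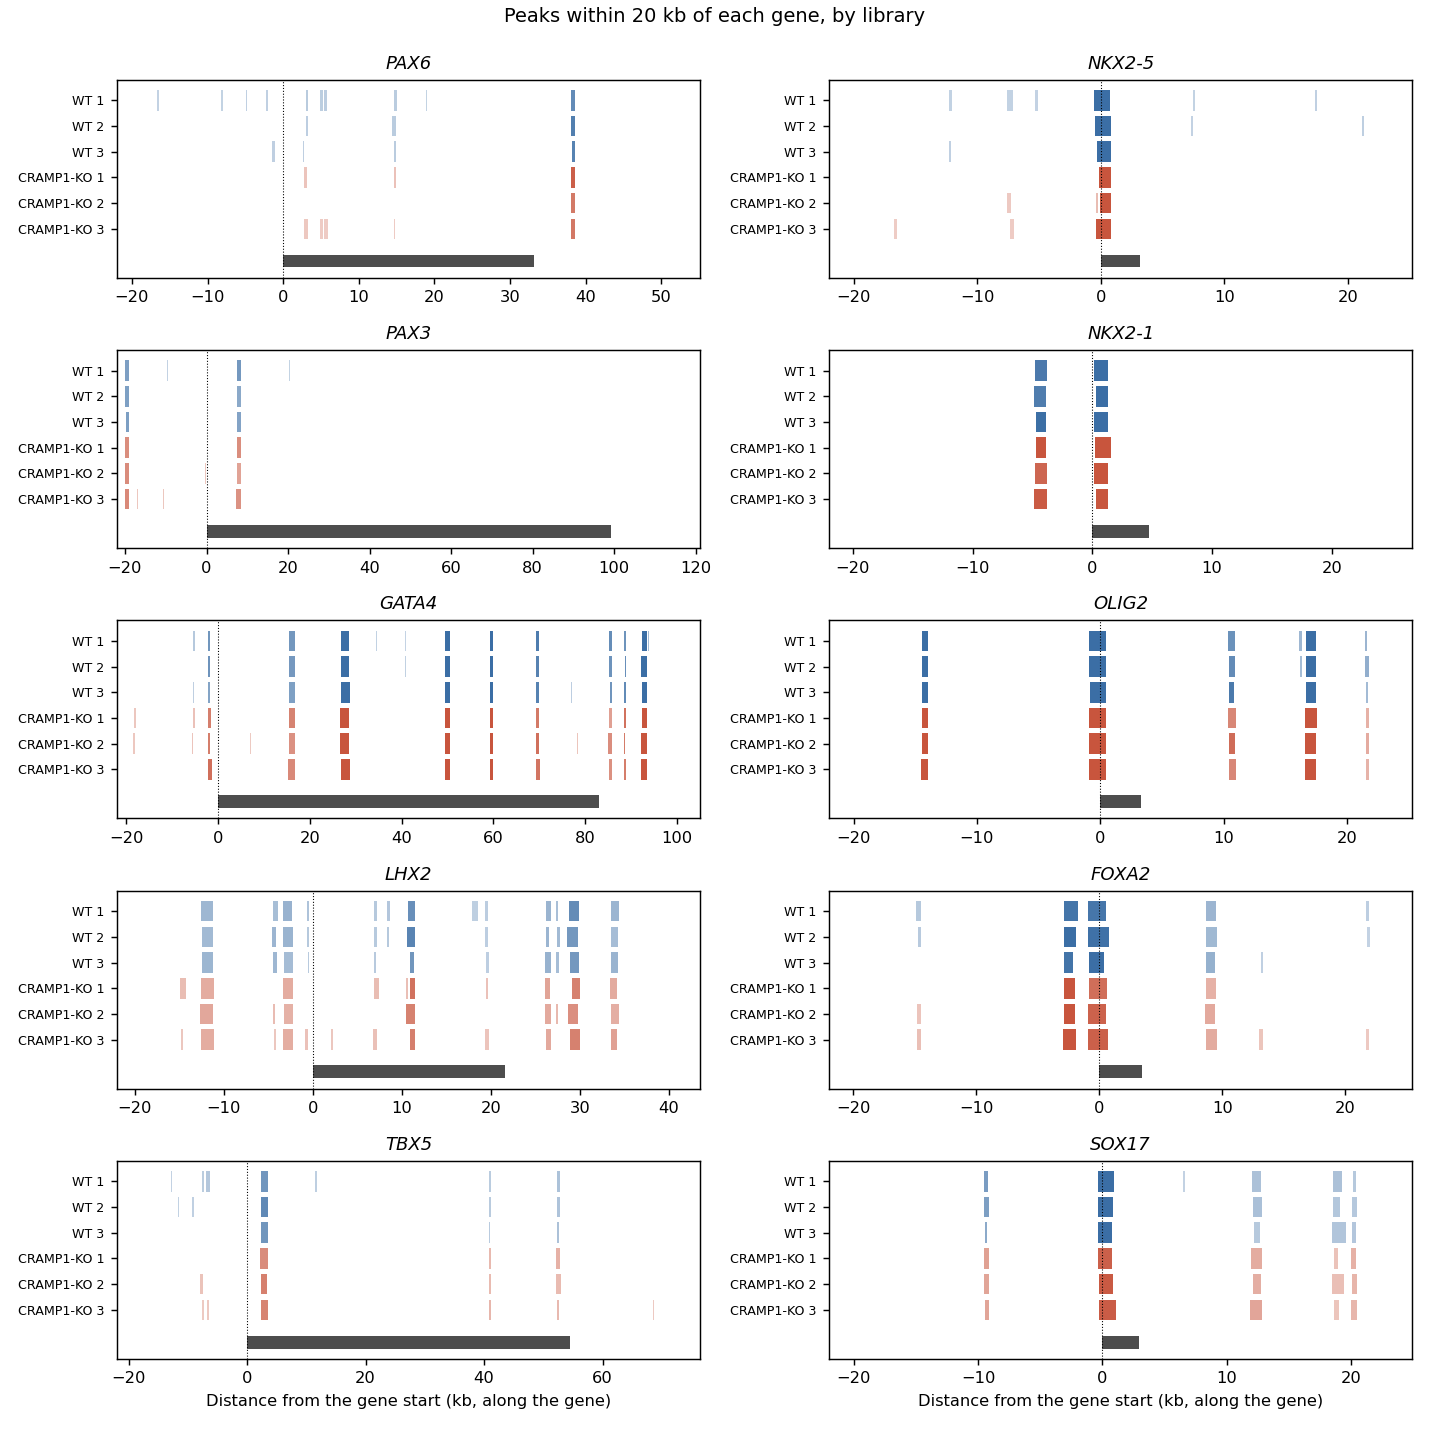
Peaks within 20 kb of each of the 10 genes, 1 panel per gene and 1 row per library. The horizontal axis is the distance from the gene start in kb along the direction of the gene, each block is a peak that is darker where its normalised pileup is higher, the dark grey bar is the gene, and the dotted line its start. The blocks that recur in all 6 rows are the 37 shared regions, and most pale blocks stand in 1 or a few rows.

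The 10 genes divided by whether the start itself was open. The start is here the 5′ end of the interval in the rule, 1 per gene. A peak lay within 1 kb of the start of NKX2-5, NKX2-1, OLIG2, FOXA2 and SOX17 in all 6 libraries, and of PAX6, GATA4 and TBX5 in no library. RefSeq lists 9 starts for PAX6 and 2 each for TBX5 and NKX2-1, and peaks at further starts were not looked for. At the starts of PAX3 and LHX2 a peak was listed in some libraries, namely in CRAMP1-KO replicate 2 for PAX3, and in all 3 WT libraries and CRAMP1-KO replicate 3 for LHX2. Promoter sequences, from 250 bases before to 50 after a start, were matched for 5 of the 10 genes in RefSeq (GRCh38.p14), and the most upstream start of each is shown, 5′ to 3′ on the strand of the gene, with every CG in capitals, to set an open start beside starts without a shared peak. NKX2-1 (chr14:36520183-36520482, minus strand) was the open one:

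NKX2-1: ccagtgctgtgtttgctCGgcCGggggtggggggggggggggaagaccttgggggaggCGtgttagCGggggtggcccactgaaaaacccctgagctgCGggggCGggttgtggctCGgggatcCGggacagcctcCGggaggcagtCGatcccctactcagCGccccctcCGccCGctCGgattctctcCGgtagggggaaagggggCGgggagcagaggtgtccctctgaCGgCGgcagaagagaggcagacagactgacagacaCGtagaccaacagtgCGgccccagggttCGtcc

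LHX2 (chr9:124011518-124011817, plus strand) and PAX3 (chr2:222298949-222299248, minus strand) had a peak at the start in some libraries:

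LHX2: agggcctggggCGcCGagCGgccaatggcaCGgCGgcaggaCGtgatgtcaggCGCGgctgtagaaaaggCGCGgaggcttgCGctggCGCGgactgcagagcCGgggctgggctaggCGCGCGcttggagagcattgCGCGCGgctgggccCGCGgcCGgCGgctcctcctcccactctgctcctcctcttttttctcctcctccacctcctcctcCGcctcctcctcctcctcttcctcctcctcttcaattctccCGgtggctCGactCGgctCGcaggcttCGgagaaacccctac

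PAX3: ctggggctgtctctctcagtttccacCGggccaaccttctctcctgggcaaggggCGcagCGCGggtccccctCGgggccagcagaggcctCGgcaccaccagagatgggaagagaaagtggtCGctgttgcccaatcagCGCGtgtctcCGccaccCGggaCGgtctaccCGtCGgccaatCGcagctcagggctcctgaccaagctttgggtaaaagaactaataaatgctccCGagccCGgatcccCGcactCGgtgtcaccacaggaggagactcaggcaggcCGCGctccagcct

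TBX5 (chr12:114408393-114408692, minus strand) and PAX6 (chr11:31817912-31818211, minus strand) had none there:

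TBX5: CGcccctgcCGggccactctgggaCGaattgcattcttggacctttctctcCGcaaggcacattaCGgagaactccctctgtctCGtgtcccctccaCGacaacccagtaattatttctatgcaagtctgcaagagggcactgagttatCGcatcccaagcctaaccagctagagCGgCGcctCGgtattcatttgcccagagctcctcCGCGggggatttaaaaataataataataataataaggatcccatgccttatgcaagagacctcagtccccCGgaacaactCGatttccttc

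PAX6: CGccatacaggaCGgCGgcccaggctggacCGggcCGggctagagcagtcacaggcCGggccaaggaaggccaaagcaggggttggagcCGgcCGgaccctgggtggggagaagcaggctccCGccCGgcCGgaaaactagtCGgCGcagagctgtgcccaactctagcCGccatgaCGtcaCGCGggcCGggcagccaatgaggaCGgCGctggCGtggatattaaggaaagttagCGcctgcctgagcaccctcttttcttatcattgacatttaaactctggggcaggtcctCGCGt

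The number of CG did not fall in the order of the number of libraries with a start peak. NKX2-1, with a peak in every library, held 21 CG, as did PAX3 with a peak in 1 library. LHX2 held 30 CG, PAX6 24 and TBX5 15, all above the median of 14 CG over 35116 RefSeq promoters of the same length. RefSeq lists 15 starts for these 5 genes, with 5 to 32 CG, and 9 of the 15 belong to PAX6, so counts over them mostly describe that gene. The motif CCAAT, searched on both strands, was found in 6 of the 15 and in 34.6% of all promoters. The motif TATAAA, searched in the same way, was in 0 of the 15 and in 11.5% of all promoters. The PAX6 interval of the rule, like that of NKX2-1, differs in length from the RefSeq gene, so its start need not be the RefSeq start shown.

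OLIG2 (chr21:34398216-34401503, plus strand), a basic helix-loop-helix factor of motor neurons and oligodendrocytes, had the strongest open start. Its normalised pileup at chr21:34397261-34398705 was 311, 378 and 368 for WT against 339, 394 and 315 for CRAMP1-KO. The genotypes overlapped, with the highest and the second lowest value both in CRAMP1-KO. WT averaged 352 ± 36.2 and CRAMP1-KO 349 ± 40.8 (SD, n = 3), and the log2 difference of CRAMP1-KO minus WT was -0.01 (SE 0.11; limma adjusted p = 0.946), with a 95% interval of -0.23 to 0.20. Ranked by the authors' −log10 q, this peak stood in the top 2.54% of its list in the median library.

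NKX2-5 (chr5:172659107-172662315, minus strand), a homeodomain factor of the early heart, came next. The pileup at its start, chr5:172661473-172662868, was 196.5, 188.5 and 202.1 for WT against 170.7, 188.2 and 173.9 for CRAMP1-KO. Every CRAMP1-KO library lay below every WT library, replicate 2 narrowly, and the log2 difference was -0.14 (SE 0.10; limma adjusted p = 0.296). How many of the genome's regions separate the genotypes without overlap was not counted. Such a separation at a region, here and below, therefore has no genome share beside it. NKX2-1 (chr14:36985602-36990354, minus strand), which specifies thyroid, lung and ventral forebrain, had an open region beginning 0.133 kb into the gene at chr14:36988815-36990221. Its pileup was 174, 185 and 177 for WT against 163, 175 and 149 for CRAMP1-KO, the genotypes overlapped, and the log2 difference was -0.14 (SE 0.10; limma adjusted p = 0.315). A second NKX2-1 region, 3.77 kb upstream, was at 134, 129.9 and 149 for WT against 156, 129.9 and 143 for CRAMP1-KO and overlapped as well. The NKX2-1 window held these 2 peaks and no other in each of the 6 libraries.

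FOXA2 (chr20:22561642-22565101, minus strand), a forkhead pioneer factor of endoderm and floor plate, had a pair of strong regions. Its start is taken from the interval of the rule, which is shorter than the RefSeq gene. At its start (chr20:22564329-22566026) the pileup was 139, 146 and 151 for WT against 121, 135 and 137 for CRAMP1-KO, and 1.76 kb upstream (chr20:22566864-22568025) it was 141, 160.5 and 142 for WT against 162, 164 and 162 for CRAMP1-KO. The CRAMP1-KO libraries lay below WT at the start and above WT upstream, without overlap, but neither difference passed: the log2 differences were -0.15 (SE 0.10; limma adjusted p = 0.275) and 0.14 (SE 0.10; limma adjusted p = 0.295). Relative to the local background, which was 0.17 and 0.18 higher in CRAMP1-KO on the log2 scale, the differences were -0.32 and -0.04. SOX17 (chr8:55370495-55373456, plus strand), an HMG-box factor of endoderm and endothelium, had 167, 166 and 156 for WT against 137, 144 and 142 for CRAMP1-KO at its start (chr8:55370154-55371604). The 3 CRAMP1-KO values lay below the 3 WT values, and the log2 difference was -0.21 (SE 0.10; limma adjusted p = 0.108). The median rank of the start peak within the list was the top 10.4% for NKX2-5, 14.9% for SOX17, 16.4% for NKX2-1 and 23.6% for FOXA2.

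**Figure D2:**
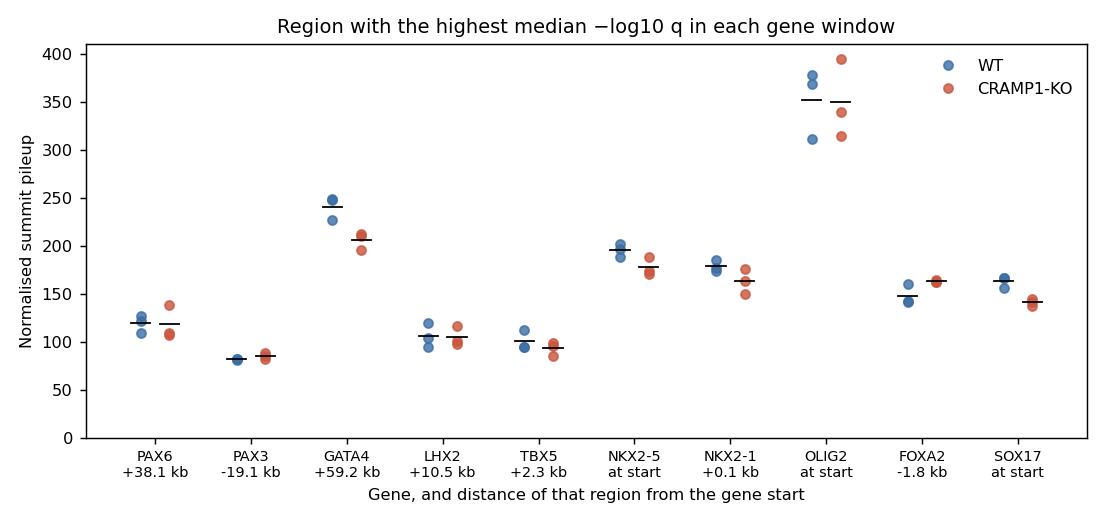
Normalised summit pileup of the region with the highest median −log10 q in each gene window, 1 point per library and a bar at the mean of 3. The vertical axis starts at 0, and the distance of the region from the gene start stands under each gene. OLIG2 is highest at 352 in WT and 349 in CRAMP1-KO, and the WT and CRAMP1-KO points overlap at PAX6, LHX2, TBX5, NKX2-1 and OLIG2. None of the regions shown passed limma, and the share of all regions of the genome without overlap was not counted.

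The 5 genes without a shared peak at the start were not closed throughout their windows. GATA4 (chr8:11534468-11617511, plus strand), a zinc-finger factor of heart and endoderm, had 9 shared regions in a window of 123 kb, against 5 each for OLIG2 and SOX17 in windows of 43.3 and 43.0 kb. The region with its highest −log10 q, 59.2 kb into the gene at chr8:11593656-11594343, had a pileup of 226, 248 and 248 for WT against 212, 209.7 and 195 for CRAMP1-KO. A region 26.6 kb into the gene, chr8:11561102-11563143, spanned 2042 bp and stood at 241, 246 and 269 for WT against 237, 234 and 240.1 for CRAMP1-KO. CRAMP1-KO lay below WT in every library at both, but neither passed, with log2 differences of -0.23 (SE 0.10; limma adjusted p = 0.0785) and -0.09 (SE 0.10; limma adjusted p = 0.545). The shared region nearest to the GATA4 start lay 1.34 kb upstream (chr8:11532352-11533127), with 95.2, 98.5 and 75.3 for WT against 101, 102 and 119 for CRAMP1-KO, and its summit was at the same base in all 6 libraries. CRAMP1-KO lay above WT in each library there, and the log2 difference of 0.27 (SE 0.12; limma adjusted p = 0.0875) missed the threshold. The local background there was 0.19 higher in CRAMP1-KO on the log2 scale, and by fold enrichment over it the difference was 0.09 (limma adjusted p = 0.713).

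LHX2 (chr9:126773889-126795442, plus strand), a LIM-homeodomain factor of the cortex and eye, had 6 shared regions. The one with the highest −log10 q, 10.5 kb into the gene at chr9:126784397-126785412, was at 104, 119.7 and 94.8 for WT against 116, 97.7 and 101 for CRAMP1-KO, the genotypes overlapped, and the log2 difference was -0.01 (SE 0.11; limma adjusted p = 0.949). Its weak start region, chr9:126773037-126773522, was at 32.7, 24.6 and 22.3 in WT and at 22.3 in CRAMP1-KO replicate 3, the 1 knockout library with a peak there. Ranked by −log10 q, that peak stood 82.5% of the way down its list in the median library, among the weaker peaks, and the single PAX3 start peak stood 89.5% of the way down. TBX5 (chr12:114791735-114846247, minus strand), a T-box factor of heart and forelimb, had its main region 2.26 kb inside the gene at chr12:114842674-114843991. The pileup was 94.4, 112 and 94.8 for WT against 84.8, 98.9 and 95.4 for CRAMP1-KO, the genotypes overlapped, and the log2 difference was -0.11 (SE 0.12; limma adjusted p = 0.52).

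The paired-box genes had few shared regions. PAX3 (chr2:223064606-223163715, minus strand), which acts in neural crest and muscle precursors, had 2 shared regions. The upstream one, chr2:223182796-223183660, was at 81.5, 80.7 and 82.2 for WT against 82.3, 84.6 and 87.7 for CRAMP1-KO. CRAMP1-KO lay narrowly above WT, with a log2 difference of 0.06 (SE 0.12; limma adjusted p = 0.759). The region 7.21 kb into the gene was at 92.1, 68.8 and 76.7 for WT against 82.3, 57.2 and 77.7 for CRAMP1-KO, and the genotypes overlapped. PAX6 (chr11:31806340-31839509, minus strand), which acts in eye, forebrain and pancreas, had 1 shared region, 38.1 kb from its start and beyond its 3′ end, on the side of ELP4, the next gene in the gene table. There (chr11:31800884-31801438) the pileup was 109, 127 and 121 for WT against 138, 107 and 108 for CRAMP1-KO, and the highest value and the lowest were both in CRAMP1-KO. The log2 difference was -0.02 (SE 0.11; limma adjusted p = 0.919), with a 95% interval of -0.24 to 0.20. The region nearest to the PAX6 start, 1.13 kb upstream (chr11:31840641-31840932), had a peak in WT replicate 3 alone, with a pileup of 15.3. The other 10 PAX6 regions, this one included, were in 1 to 5 libraries, and 5 of them in WT replicate 1 alone.

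Tested over the genome with limma on normalised pileup, 24.9% of the 92505 shared regions differed between genotypes at an adjusted p under 0.05. Near the 10 genes it was 7 of 37 (18.9%), 3 higher and 4 lower in CRAMP1-KO, and 11 of 37 (29.7%) at an unadjusted p under 0.05, where the genome had 37.1%. The 3 rises were at regions whose peak in WT replicate 3, and for TBX5 also in WT replicate 1, had a −log10 q under 10: with peaks under that limit left out, limma called 4 of 32, all lower in CRAMP1-KO, where it called 26.6% of the genome's regions. The count was 3 (8.11%) without WT replicate 2, 4 (10.8%) when either replicate 3 was left out, and 5 to 7 without any other 1 library. The genome share fell as well in these fits, to 16.7% in the first of them, and to 18.4% and 19.9% when replicate 3 of WT or of CRAMP1-KO was dropped. In the genome 9.35% were higher and 15.5% lower, so 37.6% of calls were rises. That split depended on scaling, with 50.9% rises after quantile normalisation, 50.2% when scaled to the lowest background and 64.6% by fold enrichment over the local background. The median log2 difference was -0.09 near the 10 genes and -0.07 in the genome. By fold enrichment, where 1.34% of all regions were called, limma called 0 of the 37 and found 7 (18.9%) at an unadjusted p under 0.05, where the genome had 20.6%. Scaled to the lowest background, limma called 9.45% of the genome's regions and 2 of the 37 (5.41%), a SOX17 and a TBX5 region described next, both higher in CRAMP1-KO. No start region was among the 7 called by pileup, which lay in the windows of SOX17, GATA4, TBX5 and OLIG2.

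SOX17 had 3 of the 7, in opposite directions. The region 11.9 kb past its start (chr8:55382413-55383367) had a pileup of 35.0, 36.5 and 23.7 for WT against 47.2, 45.3 and 55.4 for CRAMP1-KO, and the region 20.05 kb past it (chr8:55390541-55390964) had 23.6, 25.5 and 27.9 for WT against 41.2, 36.9 and 35.4 for CRAMP1-KO. Both rose, with log2 differences of 0.66 (SE 0.18; limma adjusted p = 0.00584) and 0.56 (SE 0.19; limma adjusted p = 0.0246), and CRAMP1-KO lay above WT in every library. Between them, a region 18.5 kb past the start was at 35.0, 27.2 and 29.3 for WT against 20.6, 25.02 and 18.5 for CRAMP1-KO, below WT in every CRAMP1-KO library, but its log2 difference of -0.52 (SE 0.21; limma adjusted p = 0.056) did not pass. The region 9.13 kb upstream (chr8:55361001-55361366) had 86.0, 82.4 and 66.9 for WT against 60.5, 56.0 and 56.2 for CRAMP1-KO and fell, with a log2 difference of -0.44 (SE 0.14; limma adjusted p = 0.0152). The rise at 11.9 kb lost its call without WT replicate 3 (0.44, limma adjusted p = 0.0887). The fall upstream lost its call without WT replicate 1 or 2 (limma adjusted p = 0.0872 and 0.0770), and the rise at 20.05 kb lost it when replicate 1 or 2 of either genotype was left out (limma adjusted p of 0.0511 to 0.0926).

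GATA4 had 2 called regions, both lower in CRAMP1-KO. The region 49.4 kb into the gene (chr8:11583908-11585077) was at 190.4, 224 and 210.4 for WT against 179, 174 and 161 for CRAMP1-KO, a log2 difference of -0.28 (SE 0.10; limma adjusted p = 0.0292). The region 85.0 kb from the start (chr8:11619461-11620264), past the 3′ end on the side of NEIL2, was at 107, 99.3 and 96.2 for WT against 61.8, 83.4 and 79.2 for CRAMP1-KO, a log2 difference of -0.44 (SE 0.12; limma adjusted p = 0.00624). In both, every CRAMP1-KO library lay below every WT library. The region at 49.4 kb lost its call when WT replicate 2, WT replicate 3 or CRAMP1-KO replicate 3 was left out (limma adjusted p = 0.164, 0.0677 and 0.123), and also after quantile normalisation or without limma's intensity trend (adjusted p = 0.171 and 0.115). The region at 85.0 kb lost it without CRAMP1-KO replicate 1, its lowest library (-0.30, limma adjusted p = 0.0891). Its covered length in bases lay the other way, at 568, 562 and 511 for WT against 686, 804 and 685 for CRAMP1-KO, and did not pass.

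TBX5 and OLIG2 had 1 called region each. The TBX5 region, 40.8 kb into the gene at chr12:114805126-114805467, was weak at 19.8, 21.2 and 20.9 for WT against 32.7, 29.8 and 35.4 for CRAMP1-KO. CRAMP1-KO lay above WT in every library, and the region rose by 0.66 (SE 0.20; limma adjusted p = 0.012) on the log2 scale. Without CRAMP1-KO replicate 3, its highest library, the limma adjusted p was 0.0511. The OLIG2 region, 13.9 kb upstream on the side of EPCIP (chr21:34383679-34384279), was strong, at 237, 222 and 237 for WT against 207, 192 and 181 for CRAMP1-KO. It fell, with a log2 difference of -0.27 (SE 0.10; limma adjusted p = 0.0373), and its local background was also lower in CRAMP1-KO, by a log2 difference of -0.16. By fold enrichment over that background the log2 difference was -0.13 (limma adjusted p = 0.303). The OLIG2 call held without CRAMP1-KO replicate 1 and was lost without any other 1 library (limma adjusted p of 0.0622 to 0.154), and after quantile normalisation or without limma's intensity trend (adjusted p = 0.244 and 0.119).

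**Figure D3:**
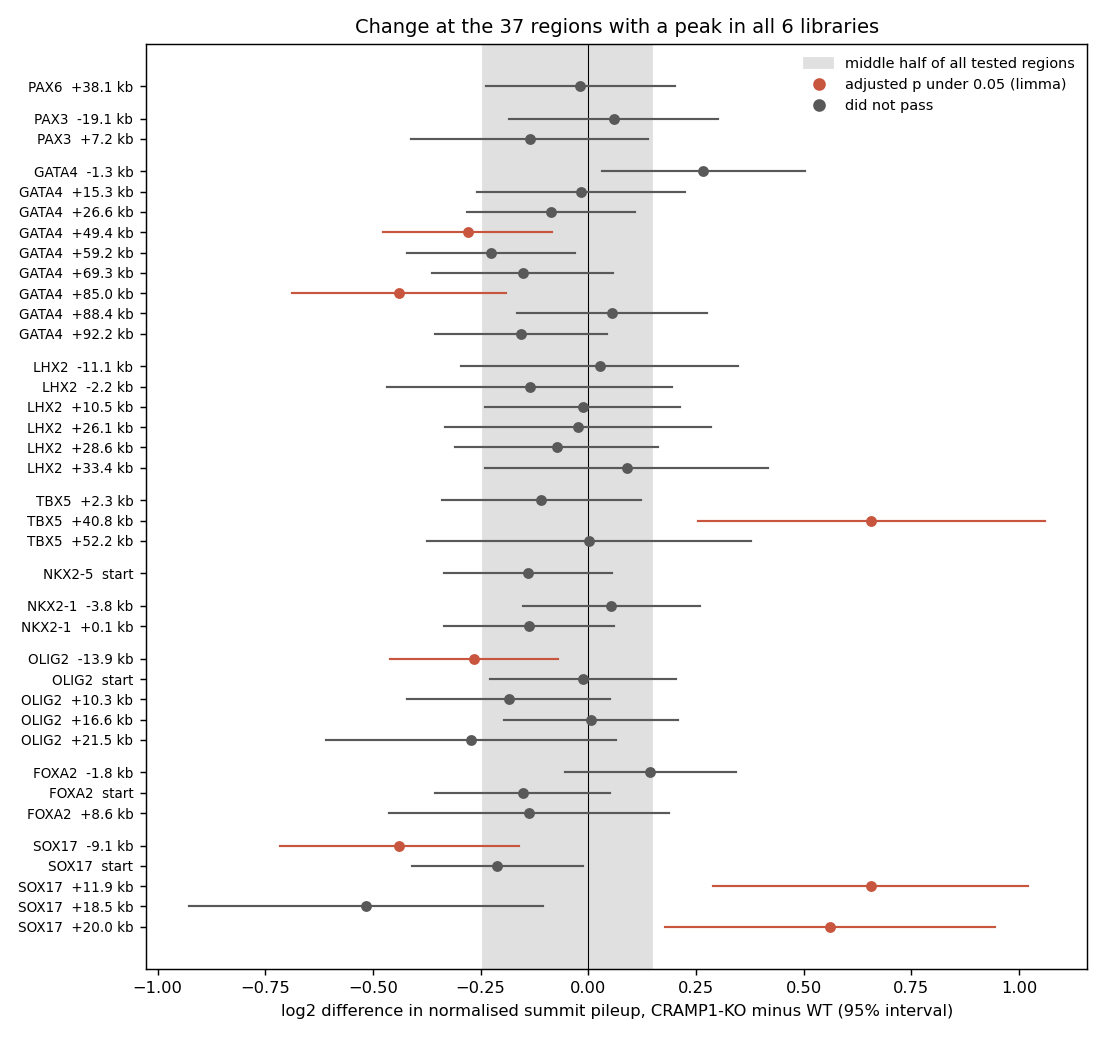
Log2 difference in normalised summit pileup, CRAMP1-KO minus WT, at the 37 regions near the 10 genes with a peak in all 6 libraries, each with its 95% interval and labelled by its distance from the gene start. Red points passed limma at an adjusted p under 0.05 (7 of 37), grey points did not, and the grey band holds the middle 50% of all 92505 regions tested.

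The width of the open regions was tested apart from their height. On log2 covered bases, limma called 0.0422% of all shared regions, 0.0281% as longer and 0.0141% as shorter in CRAMP1-KO, and 0 of the 37, of which 3 (8.11%) had an unadjusted p under 0.05, against 11.9% in the genome. The lowest of these was the NKX2-5 start, where peaks covered, in bases, 1329, 1305 and 1186 for WT against 1007, 1014 and 1246 for CRAMP1-KO. The value of CRAMP1-KO replicate 2 is summed over 2 separate peaks, where each other library had 1 peak. CRAMP1-KO replicates 1 and 2 lay below every WT library and replicate 3 lay among them, and the log2 difference was -0.36 (limma adjusted p = 0.163). The other 2 were the LHX2 region 28.6 kb past the start (-0.32, limma adjusted p = 0.348) and the TBX5 region at 2.26 kb (-0.23, limma adjusted p = 0.384). Shared regions near the 10 genes had a median normalised pileup of 98.5 and a median covered length of 825 bases, against 73.9 and 588 in the genome. For the 5 start regions the medians were 171 and 1211.

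Whole windows were compared by their share of all covered bases. In LHX2 this share was 89.6, 92.6 and 99.0 bases per 1000000 in WT and 87.1, 83.7 and 82.0 in CRAMP1-KO, with means of 93.7 ± 4.80 and 84.3 ± 2.61 (SD, n = 3; exact permutation p = 0.1). In NKX2-5 it was 26.9, 20.1 and 20.1 for WT against 12.8, 17.2 and 19.6 for CRAMP1-KO, with means of 22.3 ± 3.92 and 16.5 ± 3.42 (SD, n = 3; exact permutation p = 0.1). Both were lower in CRAMP1-KO without overlap, and 0.1 is the smallest two-sided p that 3 libraries against 3 allow. These were 2 of 10 windows, where 20.4% of 50-kb windows of the genome did not overlap either, 12.6% being higher and 7.79% lower in CRAMP1-KO. The gene windows span 43.0 to 139 kb, so the 50-kb windows are not matched to them in size. In bases rather than shares, LHX2 (8521, 7709 and 6643 against 6844, 6511 and 7550) and NKX2-5 (2556, 1669 and 1348 against 1007, 1342 and 1800) overlapped. The remaining 8 windows overlapped, with GATA4 highest at 96.3, 96.3 and 120.0 for WT against 115, 119 and 99.1 for CRAMP1-KO. PAX6 ranged widely, at 32.5, 16.1 and 19.4 for WT against 15.9, 7.03 and 22.02 for CRAMP1-KO (exact permutation p = 0.4).

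**Figure D4:**
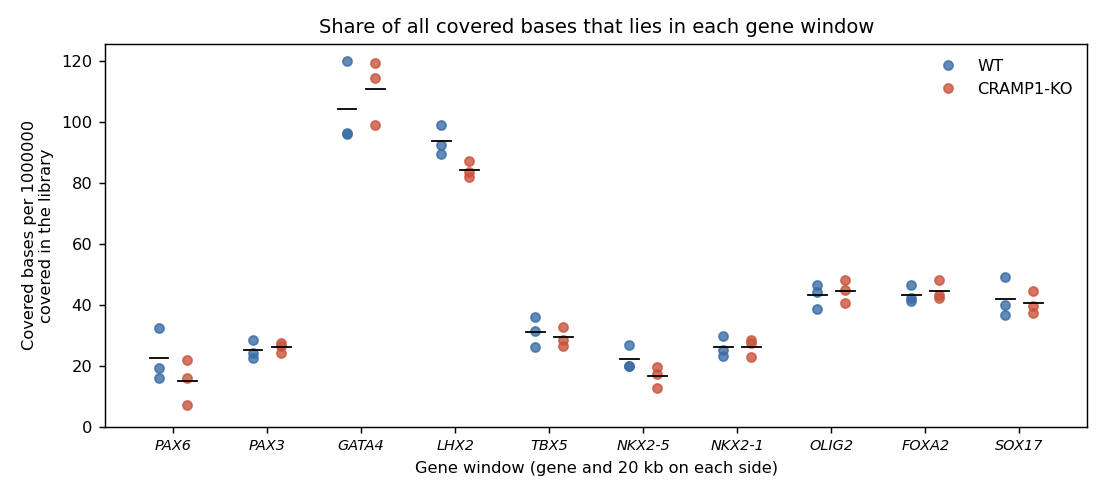
Covered bases in each gene window (the gene and 20 kb on each side) per 1000000 bases covered in the library, 1 point per library and a bar at the mean of 3, on an axis from 0. The WT and CRAMP1-KO points separate at LHX2 and NKX2-5, both lower in CRAMP1-KO, and overlap in the other 8 windows.

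By number of peaks per 10000, 0 of the 10 windows separated the genotypes, where 13.1% of 50-kb windows of the genome did, 5.14% higher and 7.92% lower in CRAMP1-KO. Without WT replicate 1 there were 2, LHX2 and OLIG2, both lower in CRAMP1-KO. The genome share with that library left out was not counted, and the 13.1% from all 6 libraries does not stand for it. NKX2-1 held 2 peaks in every library, and OLIG2 held 6, 6 and 5 in WT and 5 in each CRAMP1-KO library. GATA4 held 15, 10 and 11 for WT against 11, 13 and 9 for CRAMP1-KO, and the genotypes overlapped. PAX6 ranged from 10 in WT replicate 1 to 1 in CRAMP1-KO replicate 2.

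A list of 17 other developmental transcription factor genes of the same kind was described in the same way. A peak within 1 kb of the start was present in all 6 libraries at 11 of the 17, among them SOX9, TBX3 and OLIG1, in none at OTX2, ISL1 and EN1, and in some libraries at PAX9, HAND1 and GATA6. Of their 57 shared regions, limma on pileup called 8 (14.04%), 3 higher and 5 lower in CRAMP1-KO, with a median log2 difference of -0.06. Among 10 constitutively expressed genes such as ACTB, GAPDH and TBP, 10 of 10 had a start peak in all 6 libraries, at a median rank in the top 5.26% of the list. Their 41 shared regions gave 7 calls, 1 higher and 6 lower, and a median of -0.11. Each of these called shares lies below the 24.9% of the genome, as does that of the 10 genes, and these differences in share were not tested.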

How the data were processed

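Accessible DNA was measured by ATAC-seq in 3 WT and 3 CRAMP1-KO libraries of U2OS cells. The submitters' processing notes name MACS3, BWA 0.7.17-r1188, cutadapt 3.4, bcl2fastq 2.20.0 and the hg19 build. How duplicates were handled, and whether cut sites were shifted, is not stated there. The authors deposited 1 peak list per library, called without pooling, with a score, a ratio of summit pileup to local background (fold enrichment), and −log10 p and −log10 q. These are the authors' own values of each peak. The lists hold no read counts, so depth is unknown. The score was not used further, and −log10 q ranked and filtered peaks.

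Pileup and background were solved from the deposited fold and −log10 p, and 100% of peaks gave a whole pileup within 0.01. Peaks on chromosomes 1 to 22 and X were merged into regions at an overlap of 1 bp. Regions with a peak in all 6 libraries were tested with limma 3.58.1 (R 4.3.3, trend, two-sided, Benjamini-Hochberg over 92505 regions, threshold 0.05) on log2 pileup and log2 covered bases, each centred on the library median. Window shares were compared by exact permutation over 20 label assignments. Background windows were the 37922 tiles of 50 kb with a peak in every library, not matched in size to the gene windows. The solver and limma were tested on simulated data. Among 92505 simulated regions, 100 were shifted by 0.5 on the log2 scale and 100 by 1. With them limma called 4% and 48% of the shifted regions and 0% of the others. Far fewer regions were shifted than were called in the real data, so the power there was not measured. The rest was done in Python 3.11.15 (scipy 1.17.1, pandas 2.3.3, numpy 2.4.6).

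The members and gene lists were chosen with earlier results of these data known. In each window the text names the region nearest the start, the one with the highest median −log10 q (among regions in at least 3 libraries) and every called region. Others (NKX2-1 at 3.77 kb, PAX3 at 7.21 kb, GATA4 at 26.6 kb, SOX17 at 18.5 kb, and LHX2 and TBX5 by width) were named after their values were seen. Intervals of the other lists were written by hand for hg19 and checked against a GRCh38.p14 gene table for chromosome and length. Of the 10 members, 8 agreed in length within 15%, and NKX2-1 and FOXA2 did not. Promoter sequences came from RefSeq (GRCh38.p14), with 250 bases before and 50 after each start. The values of 1 marker gene are not reported here. No hg19 annotation was used here, so exon and intron are not given. No pairing by replicate number was seen: the deviations of same-numbered libraries correlated at 0.06, 0.06 and -0.09, and those of unlike-numbered ones at -0.16 to 0.10. So few correlations cannot exclude a preparation shared by number, which the labels do not give. Alternatives were other flanks, merging distances, q limits, list lengths, scalings, pseudocounts, a model without trend, a block for the replicate number, and leaving out 1 library at a time.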

Additional observations from a re-analysis of the deposited data

How the results depend on the processing

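The count of called regions near the 10 genes (7 of 37 by limma on pileup) was 0 by fold enrichment over local background (7 at an unadjusted p under 0.05), 2 when scaled by the lowest background (the TBX5 region at 40.8 kb and the SOX17 region at 11.9 kb), 4 of 32 with only peaks at −log10 q of 10 or more (0 higher and 4 lower), and 14 of 60 with a flank of 50 kb, and it ranged from 3 to 7 with 1 library left out. Without a trend the count was 6 of 37 (3 higher and 3 lower), with at least 1 fall that was not among the 7. In the genome limma called 23009 regions, 1239 by fold enrichment, 8738 when scaled by the lowest background and 15822 without a trend. On covered bases the count was 0 in every alternative run, without centring too, which moved the genome median from -0.04 to 0.09. The count present in 3 of 3 against 0 of 3 libraries (0) was 2 with a flank of 50 kb (1.37%, against 1.91% in the genome) and 2 at −log10 q of at least 10 (4.65% against 1.98%), and ranged from 0 to 3 with 1 library left out (0% to 3.37% against 3.10% to 4.48%).

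Windows apart by share of peaks (0) numbered 2 with a flank of 50 kb (NKX2-5 and TBX5), 1 at −log10 q of at least 10 and 1 in lists of equal length (LHX2 in both), and 0 to 2 with 1 library left out. Windows apart by covered share (2) numbered 0 in raw bases and 2 to 3 with 1 library left out. LHX2 was no longer among them at −log10 q limits of 5 and 10, where PAX6 and SOX17 were. The share of the genome's windows was not counted under any of these alternatives. These window counts therefore cannot be set against the genome. Uncalled differences near 0 changed sign. The PAX6 region at 38.1 kb became 0.036 by quantile normalisation, 0.00049 scaled by lowest background and 0.011 at −log10 q of 10. The LHX2 region at 10.5 kb became 0.025, 0.0069 and 0.018 under these, 0.0035 at −log10 q of 5 and 0.0018 in lists of equal length. The OLIG2 start became 0.16, 0.0069 and 0.018, and 0.0035 and 0.0018. By fold enrichment the PAX3 upstream region became -0.10 and the FOXA2 region at 1.76 kb became -0.035. With 1 library left out, PAX6 ranged from -0.13 to 0.038, LHX2 from -0.10 to 0.076 and OLIG2 from -0.11 to 0.061. With the replicate number as a block, limma called 7 of 37 regions by pileup and 0 by covered bases, and 22165 and 0 in the genome. The number of reads is unknown, so no limit of detection is given for regions without a peak.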
